A study of Homo sapiens with 12 samples.

Results

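The CLIC genes encode the chloride intracellular channel proteins, a family of 6 genes in this table, CLIC1 to CLIC6, out of 70116 gene identifiers with a row of counts. CLIC4 was chosen because of its level in the libraries with an siRNA against ACO1, where an earlier look at these data had found it lower than in the control libraries, and the other members were chosen because they belong to its family. The comparison of siACO1 with siControl therefore selected CLIC4, and it is given for the members as a description, with no test. The same holds for CLIC4 in every comparison that uses the siControl libraries. The comparison of siSLC25A1 with siACLY used none of the libraries that selected CLIC4 and is tested.

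The cells were MiaPaCa-2, an established line from a human pancreatic tumour, and each group had received a small interfering RNA (siRNA), a short duplex that leads to the loss of a matching transcript. The 4 groups were siControl, with a control siRNA, siSLC25A1, against the mitochondrial citrate carrier, siACLY, against ATP citrate lyase, and siACO1, against cytosolic aconitase, with 3 libraries each and 12 in all. All groups were the same cell line, so the results describe 1 line, and how many siRNAs were used for each target, their sequences, their dose and the time of harvest are not given in the sources used here. Nothing in the labels says that the libraries of a group came from separate cultures, so p-values measure only the spread between these samples, which may be technical.

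CLIC proteins have the fold of the omega-class glutathione transferases. They exist mostly as soluble proteins and can also associate with membranes, and whether they act as ion channels in cells is debated. CLIC4 is found in the cytosol, at membranes and in the nucleus, where it has been linked to TGF-beta signalling by protecting phosphorylated SMAD proteins, and at the plasma membrane it takes part in integrin trafficking downstream of G proteins that act on RhoA. In epithelial cancers its level in tumour cells and in the surrounding stroma has been reported to change in opposite directions.

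The stretches of sequence that bear on the siACO1 group are 2 heptamers, AACTAAC and TCTACGT, which an earlier analysis of these data had picked out in the 3′ UTRs of genes that were lower in siACO1. They were chosen on these libraries and are not independent evidence. As background, an siRNA guide strand recognises transcripts mainly through its seed, bases 2 to 8 from its 5′ end, and a transcript that carries the complement of a seed in its 3′ UTR can be lowered without being the intended target. The 3′ UTR of CLIC4, 3387 bases long in the longest transcript of GENCODE release 29, held each heptamer once, and the coding part of ACO1 held each once as well. The windows of 30 bases around them are shown because they carry the letters that the 2 transcripts have in common, with the heptamer in capitals, 5′ to 3′ in the sense of the transcript, on GRCh38. The first pair is the AACTAAC window of CLIC4 (chr1:24843405-24843434, plus strand, starting at base 2479 of the 3′ UTR) and that of ACO1 (chr9:32434679-32434701 joined by splicing to chr9:32436250-32436256, plus strand).
CLIC4 AACTAAC window: tttatttttacAACTAACatccattcccct
ACO1 AACTAAC window: gctcgctacttAACTAACagaggcctaact
The second pair is the TCTACGT window of CLIC4 (chr1:24842336-24842365, base 1410 of the 3′ UTR) and that of ACO1 (chr9:32433783-32433812).
CLIC4 TCTACGT window: aaaccagacttTCTACGTactactccaaag
ACO1 TCTACGT window: ggaattccaaaTCTACGTatatcaaatcac
In all 4 windows the heptamer was followed by A, which was noticed after the windows had been read. The siRNA sequences are not given in the sources used here, and whether an siRNA against ACO1 acted on CLIC4 through either heptamer was not tested.

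The coding part of ACO1, 2670 bases, held 14.4% of the 16384 possible heptamers and 3.93% of the 8-base words, and the whole transcript of 7466 bases held 33.0% and 10.3%. The longest stretch that any CLIC4 transcript shared with ACO1 was 13 bases. The median of this length over 11922 tested genes was also 13 bases, and 64.3% of them shared a stretch at least as long, so CLIC4 had no long identity with the ACO1 transcript. These counts were made after the values had been seen.

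Each of the 3 targets was lower in the libraries that carry its name. SLC25A1 stood at 8.75% of its control level in siSLC25A1, ACLY at 7.24% in siACLY and ACO1 at 3.72% in siACO1, where it went from 45.0 ± 1.57 to 1.68 ± 0.331 CPM (counts-per-million of the scaled library total; SD, n = 3). ACO1 stood at 95.2% of control in siSLC25A1 and at 112% in siACLY. Library totals ran from 24159424 to 43792811 counts, and 16197 genes passed the filter on low counts and were tested in edgeR, which called a gene at an adjusted p under 0.05. EPCAM, CDH1 and KRT7, defining markers of epithelial cells, were under 1 CPM in every library, while the other 3 epithelial markers, all keratins, were abundant, as was the mesenchymal filament gene VIM. The summed epithelial markers ran from 3604 to 3742 CPM in siControl and from 2065 to 2179 CPM in siACO1. Of the 4 fibroblast markers COL1A1, DCN and LUM were under 1 CPM in every library and COL1A2 alone carried the sum, which ran from 874 to 894 CPM in siControl and from 1545 to 1591 CPM in siACO1. The acinar and endocrine markers had no counts, the summed immune markers reached at most 0.201 CPM and the summed endothelial markers at most 0.426 CPM. The part of the shifts in keratins and COL1A2 in the level of CLIC4 was not tested.

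CLIC4 carried nearly all counts of the family that the table holds. Of the counts of CLIC2 to CLIC6 together it made up 99.82% in siControl, 99.83% in siSLC25A1, 99.88% in siACLY and 99.46% in siACO1. CLIC1 is left out of this share for the reason given further on. Of the 6 members, CLIC3 and CLIC4 passed the filter on low counts, CLIC2 had a few counts, and CLIC5 and CLIC6 had none.

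CLIC4 (ENSG00000169504, chromosome 1, 24745357 to 24844324 on GRCh38, plus strand) was at 355, 367 and 366 CPM in the siControl libraries. In siSLC25A1 it was at 354, 378 and 367 CPM, which overlaps with the control libraries. In siACLY it was at 272, 275 and 266 CPM, and in siACO1 at 88.4, 93.3 and 91.8 CPM. All siACLY libraries lay below all control and siSLC25A1 libraries, and all siACO1 libraries lay below every other library. The share of all tested genes with groups apart in this way was not counted. The raw counts behind these levels ran from 2199 to 13220 per library, so counting error was small beside the differences between groups.

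As group means, CLIC4 was at 363 ± 6.55 CPM in siControl, 366 ± 11.9 CPM in siSLC25A1, 271 ± 4.89 CPM in siACLY and 91.2 ± 2.51 CPM in siACO1 (SD, n = 3). Relative to siControl these are 74.8% in siACLY and 25.2% in siACO1. The log2 fold change against siControl was 0.01 (SE 0.04) in siSLC25A1, −0.42 (SE 0.04, 1.34-fold lower) in siACLY and −1.99 (SE 0.04, 3.97-fold lower) in siACO1. These 3 comparisons share the siControl libraries that selected the gene and carry no p here. In RNA from bulk cells, fewer cells with a transcript and less of it per cell cannot be told apart.

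In the comparison that did not use the selecting libraries, CLIC4 was higher in siSLC25A1 than in siACLY by 0.43 on the log2 scale (SE 0.04, 1.35-fold; edgeR adjusted p = 6.97e-10), with all 3 siSLC25A1 libraries above all 3 siACLY libraries. In that comparison 33.8% of all tested genes were called. CLIC3 was not called, so 1 of the 2 tested members was. The order of CLIC4 levels was thus siControl and siSLC25A1 with overlapping libraries, then siACLY, then siACO1. Against the other knockdowns, siACO1 stood at a log2 fold change of −2.01 from siSLC25A1 and −1.57 from siACLY.

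**Figure D1:**
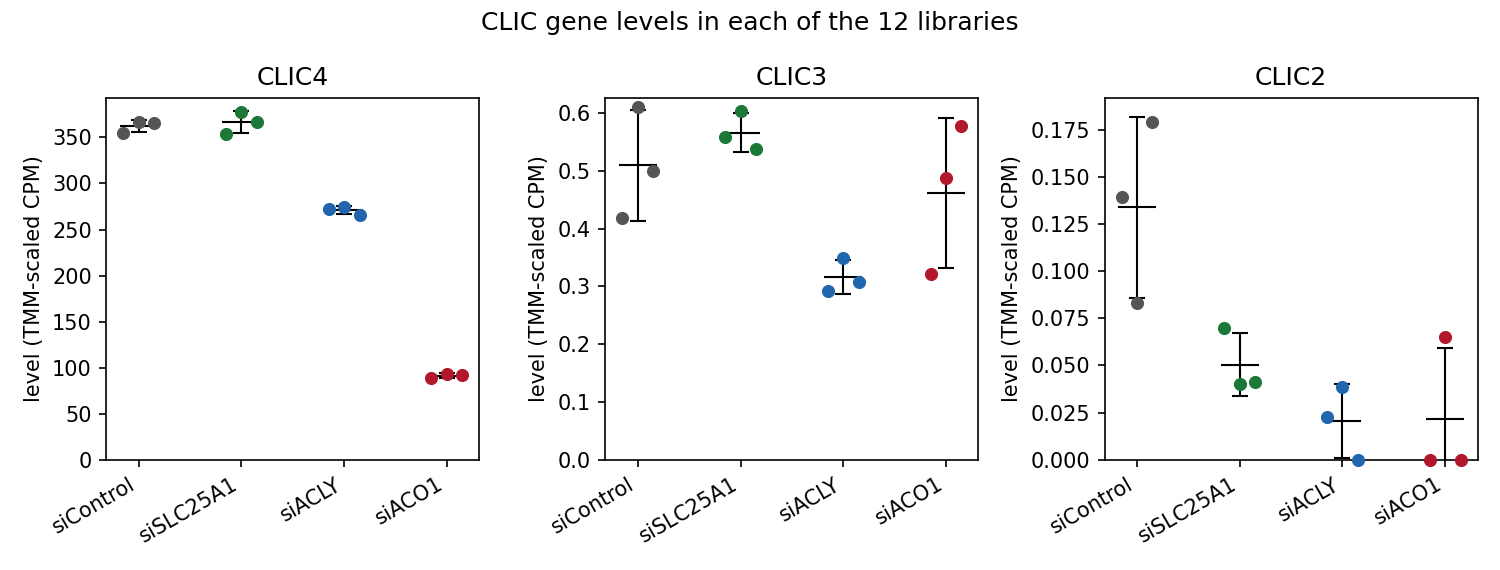
CPM (vertical axis, linear, starting at 0 and scaled for each panel) of CLIC4, CLIC3 and CLIC2 in each library (points) of the 4 groups, with the mean (horizontal line) and SD (whiskers, not drawn below 0) of the 3 libraries of a group. CLIC4 runs from 354 to 378 CPM in siControl and siSLC25A1, from 266 to 275 CPM in siACLY and from 88.4 to 93.3 CPM in siACO1, while CLIC3 stays under 1 CPM in every library.

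Per length of transcript, CLIC4 was an abundant gene of these cells. Its level per kilobase of exon (FPKM) was 80.6 ± 1.46 in siControl, 81.5 ± 2.66 in siSLC25A1, 60.3 ± 1.09 in siACLY and 20.3 ± 0.558 in siACO1 (SD, n = 3). Among 15384 tested genes with a length in the annotation it ranked 479 from the top in siControl, 460 in siSLC25A1, 645 in siACLY and 2282 in siACO1. Even at its lowest, 85.2% of the ranked genes lay below it, against 96.9% in siControl.

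The size of the CLIC4 difference in siACO1 can be placed among the other genes, as a description of why it was chosen. Of 9912 tested genes with at least 5 CPM in siControl, ACO1 itself had the lowest log2 fold change (−4.74), followed by PCGF5 (−2.05), the gene ENSG00000248187 (−2.03) and CLIC4 (−1.99). Further down stood TFCP2L1 (−1.72) and SLC44A1 (−1.62). These genes were named for their rank after the values had been seen. PCGF5 and ENSG00000248187 were at 8.61 and 7.76 CPM in siControl, far below the 363 CPM of CLIC4. Of 2320 genes with at least 100 CPM in siControl, 5 were lower in siACO1 by 2-fold or more, and CLIC4 had the lowest log2 fold change of them.

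The reads of CLIC4 could be assigned with little doubt. None of its 4495 exon bases overlapped another annotated gene. Of the 4516 different stretches of 31 bases in its transcripts, 6.82% also occurred in transcripts of other genes, namely its processed pseudogenes CLIC4P1, CLIC4P2 and CLIC4P3. Those had at most 3, 1 and 2 counts in a library.

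CLIC3 (chromosome 9, 136994635 to 136996803, minus strand), a member with a described role in the recycling of integrins, was at the lower edge of detection. It was at 0.418, 0.61 and 0.5 CPM in siControl and at 0.558, 0.603 and 0.538 CPM in siSLC25A1. In siACLY it was at 0.292, 0.349 and 0.308 CPM, and in siACO1 at 0.322, 0.487 and 0.577 CPM. The siACLY libraries lay below all libraries of siControl and siSLC25A1, whereas the siACO1 libraries overlapped with siControl. For all tested genes, the share with groups apart in this way was not counted. Each of these values rests on 8 to 22 counts.

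The differences of CLIC3 did not pass the test. The log2 fold change against siControl was 0.15 in siSLC25A1 (SE 0.36; edgeR adjusted p = 0.826) and −0.70 in siACLY (SE 0.39; edgeR adjusted p = 0.167), where 19.6% and 36.7% of all tested genes were called. Between siSLC25A1 and siACLY it was 0.85 (SE 0.40; edgeR adjusted p = 0.101). In siACO1 it was −0.12 (SE 0.37). When single libraries were left out, the siSLC25A1 value lay between 0.02 and 0.31 and the siACLY value between −0.83 and −0.54. The siACO1 value lay between −0.31 and 0.06 and so changed sign. Standard errors of this size leave room for changes of more than 1.34-fold, the size seen for CLIC4 in siACLY, so the absence of a call does not show that CLIC3 stayed level. Per kilobase, CLIC3 was at 0.433 ± 0.0817 FPKM in siControl, far below the 80.6 FPKM of CLIC4.

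CLIC2 (X chromosome, 155276211 to 155334657, minus strand), a member known to bind ryanodine receptors, had 21 counts in all. It had 5, 3 and 5 counts in siControl, 2, 1 and 1 in siSLC25A1, 1, 1 and 0 in siACLY, and 0, 2 and 0 in siACO1. Each control library had more counts than any knockdown library. How many genes with so few counts separate in this way was not counted. Scaled for depth, the control libraries ran from 0.0832 to 0.179 CPM and the highest knockdown library, in siSLC25A1, was at 0.0697 CPM. The gene did not pass the filter and was not tested, and with sums of 13, 4, 2 and 2 counts per group no fold is given.

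CLIC5 (chromosome 6, 45880827 to 46080348, minus strand), known from actin-based structures such as stereocilia and microvilli, and CLIC6 (chromosome 21, 34669389 to 34718227, plus strand) had 0 counts in all 12 libraries. A count of 0 over the 3 libraries of a group allows up to 3 counts, which is 0.0295 CPM in siControl, 0.0381 CPM in siSLC25A1, 0.0316 CPM in siACLY and 0.0351 CPM in siACO1, for counting error only. These limits lie far below the level of CLIC4 in any group, and they hold only if the counting could see the gene. Of the 5 protein-coding genes within 500 kb of CLIC5, 4 had no count in any library, and whether reads from there were left uncounted was not tested. Around CLIC6, 4 of 7 passed the filter.

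CLIC1 (chromosome 6, 31730581 to 31739763, minus strand), the most widely expressed member of the family in general knowledge, had 1 count in all, in a siSLC25A1 library. That cannot be read as absence, because its surroundings were nearly empty of counts too. Within 500 kb on either side of CLIC1, 4 of 71 protein-coding genes passed the filter (5.63%), 55 had no count in any library and 67 (94.4%) had at most 10 counts in every library. Over all 19855 protein-coding genes 60.2% passed the filter and 37.9% had at most 10 counts in every library. The empty genes include ones that most cells use, such as the splicing helicase DDX39B, the kinase subunit CSNK2B and the valyl-tRNA synthetase VARS1, each at 0 in every library, and BAG6 was present with 13 to 49 counts. These were looked up after the value of CLIC1 had been seen.

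Around the other members the share of tested protein-coding genes was 62.5% (10 of 16) for CLIC2, 71.2% (42 of 59) for CLIC3, 63.6% (7 of 11) for CLIC4, 1 of 5 for CLIC5 and 57.1% (4 of 7) for CLIC6. CLIC1 lies in the major histocompatibility region, and the rules by which the authors' counter handled reads from that region are not given in the sources used here. The level of CLIC1 in these cells is therefore unknown from this table.

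**Figure D2:**
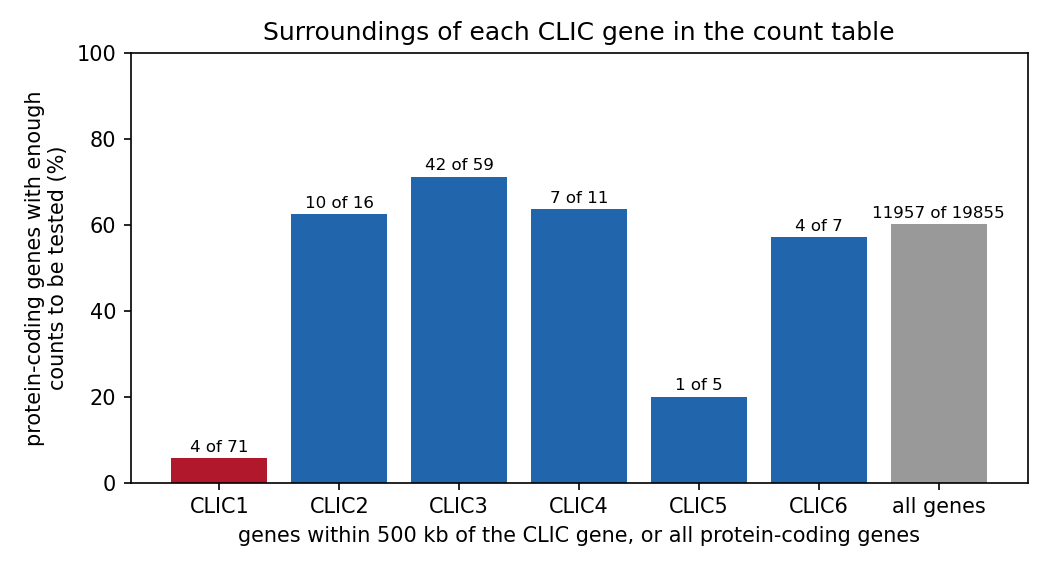
Share of protein-coding genes within 500 kb of each CLIC gene that passed the filter on low counts, in percent, beside the share over all protein-coding genes. The bar of CLIC1 stands at 5.63%, against 60.2% over all 19855 genes and 63.6% around CLIC4.

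Among the tested genes next to CLIC4 on chromosome 1, none was as low as CLIC4 in siACO1. Of the 10 tested neighbours, 5 on each side by gene start, 2 were called lower and none higher in siSLC25A1, 1 was called lower and none higher in siACLY (2 called under several alternatives), and 2 were called higher and 2 lower in siACO1. Their median log2 fold changes were −0.22, −0.13 and −0.04, beside medians over all tested genes of −0.004, 0.008 and 0.006. In siACO1 the share of all tested genes that were called was 37.1%, with 17.8% higher and 19.3% lower, so the 4 of 10 neighbours called there are close to that background. In siSLC25A1, with 2 of 10 called, that share was 19.6%, and in siACLY, with 1 of 10, it was 36.7%.

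The nearest tested gene upstream, SRRM1, a splicing coactivator which starts before CLIC4 (−113.6 kb from its start), fell in siACO1 by 0.28 on the log2 scale (SE 0.05; edgeR adjusted p = 5.06e-05) and in siSLC25A1 by 0.21 (SE 0.05; edgeR adjusted p = 0.00262). RSRP1 rose in siACO1 by 0.51 (edgeR adjusted p = 1e-07) and fell in siSLC25A1 by 0.40 (edgeR adjusted p = 2.55e-05), and TMEM50A rose in siACO1 by 0.38 (edgeR adjusted p = 2.32e-06). STPG1 fell in siACLY by 0.49 (edgeR adjusted p = 0.002). In siACO1 it was at −0.34 (edgeR adjusted p = 0.0295), a call that was lost under 6 of the alternatives, with adjusted p-values from 0.0525 to 0.119.

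**Figure D3:**
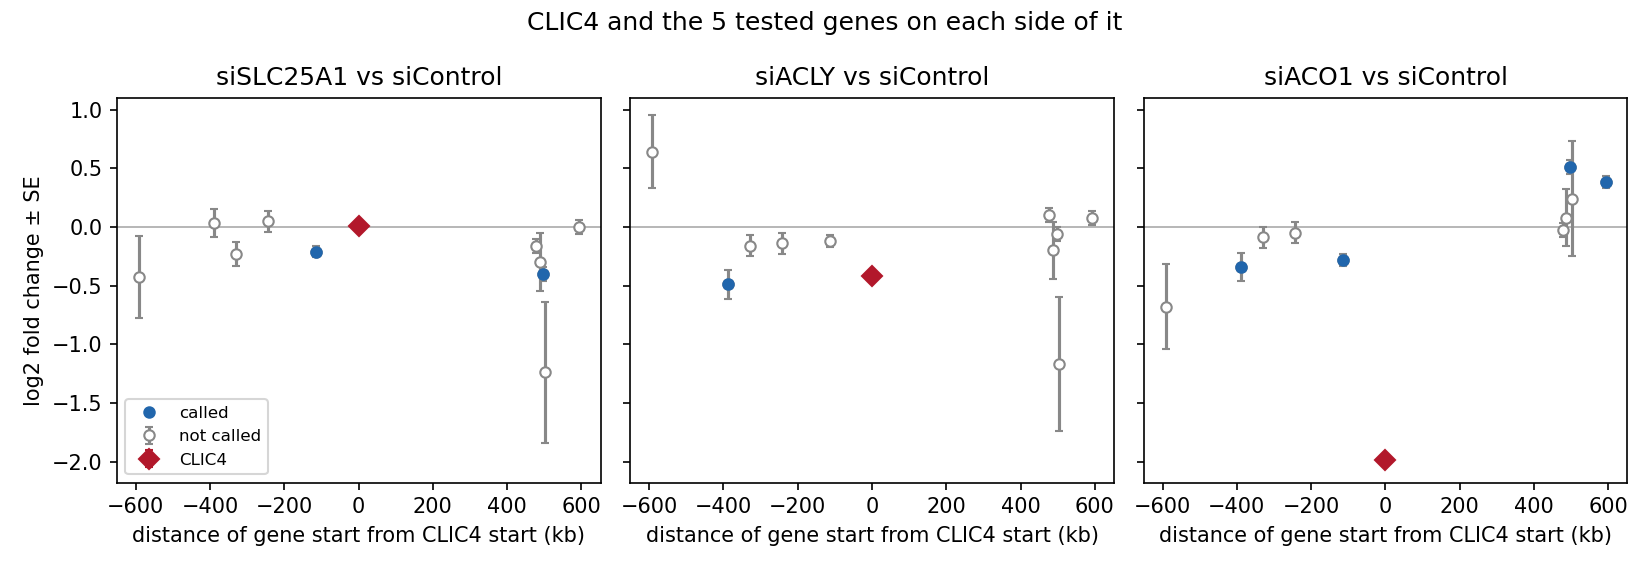
Log2 fold change against siControl (vertical axis, whiskers are SE) of CLIC4 (diamond) and the 5 tested genes on each side of it (filled where called) by the distance between gene starts in kb (horizontal axis), 1 panel per knockdown. CLIC4 stands at −1.99 in siACO1, while the called neighbours in siACO1 lie between −0.34 and 0.51.

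The heptamers can be followed through all tested genes with an annotated 3′ UTR, of which there were 11866. Motifs were searched in the strand of the transcript only, since a seed match has a direction. AACTAAC occurred in the 3′ UTR of 926 of these genes (7.8%) and TCTACGT in 280 (2.36%), and 34 genes (0.287%), CLIC4 among them, held both. A gene held a heptamer if any of its annotated 3′ UTRs did, so the 2 heptamers of a gene can lie in different transcripts. The 2 heptamers do not overlap each other in CLIC4. Genes with neither numbered 10694.

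In siACO1, a larger share of genes with a heptamer than without was called lower. Of the genes with neither heptamer 23.0% were called lower, of those with AACTAAC 40.6%, of those with TCTACGT 43.2% and of those with both 47.1% (16 of 34). The median log2 fold changes were −0.01, −0.11, −0.16 and −0.17, so most genes with a heptamer moved little. A log2 fold change of −1 or lower was seen in 1.74% of genes with neither, 3.67% with AACTAAC, 5.0% with TCTACGT and 14.7% with both. The last share is 5 of 34 genes, with CLIC4 among them. The heptamers were chosen on this comparison, so these shares are a description and carry no test.

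The other siRNAs give the same measure in libraries that were not used to pick the heptamers, beside the siControl libraries, which were. In siSLC25A1, where 9.27% of all tested genes were called lower and 10.3% higher, the share called lower was 11.5% with neither heptamer, 9.4% with AACTAAC, 9.29% with TCTACGT and 8.82% with both. In siACLY, where 18.3% of all tested genes were called lower and 18.4% higher, these shares were 23.2%, 21.8%, 19.6% and 20.6%. In neither knockdown did genes with a heptamer have a higher share of lower calls than genes with neither.

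Genes with a heptamer have longer 3′ UTRs, with a median of 3195 bases for AACTAAC and 2920 bases for TCTACGT, against 1230 bases for genes with neither. The 3453 genes with neither heptamer and a 3′ UTR of at least 2000 bases had a median length of 3243 bases. Of these genes, 24.5% were called lower in siACO1, with a median log2 fold change of −0.01. A log2 fold change of −1 or lower was seen there in 2.03% of them. The 8-base word AACTAACA, the form present in CLIC4, occurred in 367 genes, of which 43.1% were called lower, and TCTACGTA in 65 genes, of which 55.4% were called lower, with medians of −0.12 and −0.25. Of the 3453 genes of the length class, 9.85% were called lower in siSLC25A1 and 25.3% in siACLY. Called higher in siSLC25A1 were 16.7% of the length class and 12.7% of all genes with neither heptamer. With AACTAAC this share was 16.7% and with TCTACGT 15.7%. In siACLY the shares called higher were 22.4%, 20.6%, 22.1% and 25.4% in the same order. The length class and the 8-base words were chosen after the values had been seen.

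**Figure D4:**
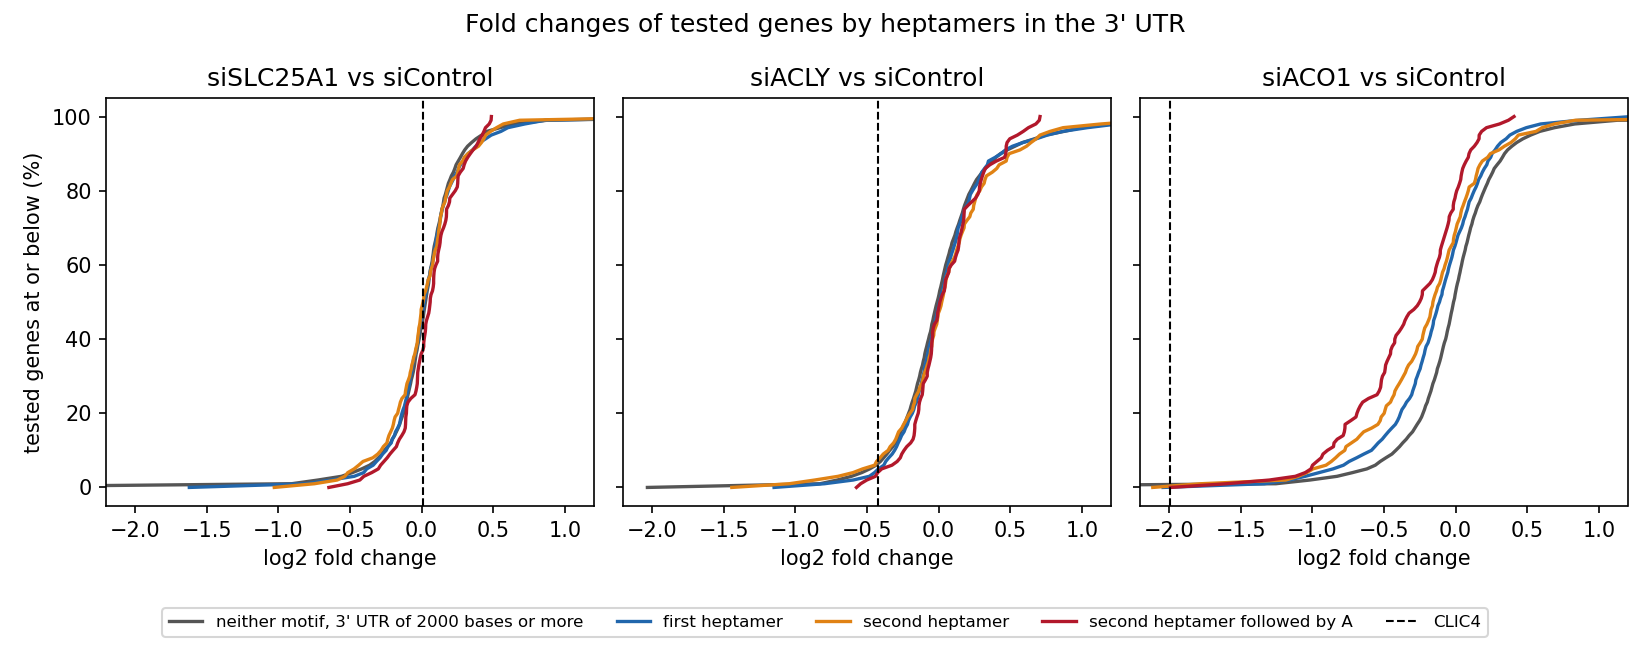
Cumulative share of tested genes (vertical axis, in percent) by log2 fold change against siControl (horizontal axis), 1 panel per knockdown, for genes with neither heptamer and a 3′ UTR of at least 2000 bases, with AACTAAC (first heptamer), with TCTACGT (second heptamer) and with TCTACGTA, with CLIC4 as a dashed line. In siACO1 the 3 heptamer curves have medians of −0.11, −0.16 and −0.25 against −0.01 for genes with neither, and in the other knockdowns the 4 curves run close together.

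Of the 34 genes with both heptamers, 26 had at least 5 CPM in siControl, and CLIC4 had the lowest log2 fold change of them in siACO1. The next were TFCP2L1, a transcription factor, CPNE3, a calcium-dependent membrane-binding protein, PHKA1, a subunit of phosphorylase kinase, and COL4A1, a chain of basement membrane collagen. The longest COL4A1 transcript, with a 3′ UTR of 1400 bases, held AACTAAC there and no TCTACGT. TFCP2L1 fell from 7.14 ± 0.428 to 2.17 ± 0.451 CPM, a log2 fold change of −1.72 (SE 0.14). CPNE3 fell from 99.5 ± 0.706 to 38.3 ± 1.95 CPM, a log2 fold change of −1.38 (SE 0.05). PHKA1 fell from 54.8 ± 1.74 to 25.5 ± 1.09 CPM, a log2 fold change of −1.10 (SE 0.06). COL4A1 fell from 22.0 ± 1.88 to 11.9 ± 0.883 CPM, a log2 fold change of −0.88 (SE 0.08). These genes were picked for their low value in siACO1, so their direction there is not independent evidence and no p is given for it.

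In the other knockdowns the values of these genes were mixed. These comparisons share the siControl libraries that were used to pick the genes, so no p is given. CPNE3 was at 0.04 in siSLC25A1 (SE 0.05) and −0.01 in siACLY (SE 0.05) on the log2 scale. PHKA1 was at −0.07 and −0.08 in the same order (SE 0.05 each). TFCP2L1 was lower in siSLC25A1 by 0.40 (SE 0.13) and higher in siACLY by 0.48 (SE 0.12). COL4A1 was at −0.16 in siSLC25A1 (SE 0.08) and at −0.23 in siACLY (SE 0.08).

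The windows of TFCP2L1 are shown because it stood next to CLIC4 among the genes with both heptamers and differs from it in the base after TCTACGT. They lie on chromosome 2, minus strand, at chr2:121222793-121222822 and chr2:121223715-121223744.
TFCP2L1 AACTAAC window: gggagtgggttAACTAACagctttattgag
TFCP2L1 TCTACGT window: cctctttcttcTCTACGTtgtttctaagga
Among the other CLIC genes, the 3′ UTR of CLIC5 held AACTAACA once and no TCTACGT, and those of CLIC1, CLIC2, CLIC3 and CLIC6 held neither heptamer. CLIC5 had no counts in any group, so CLIC4 was the only family member with a heptamer whose level could be followed.

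**Figure D5:**
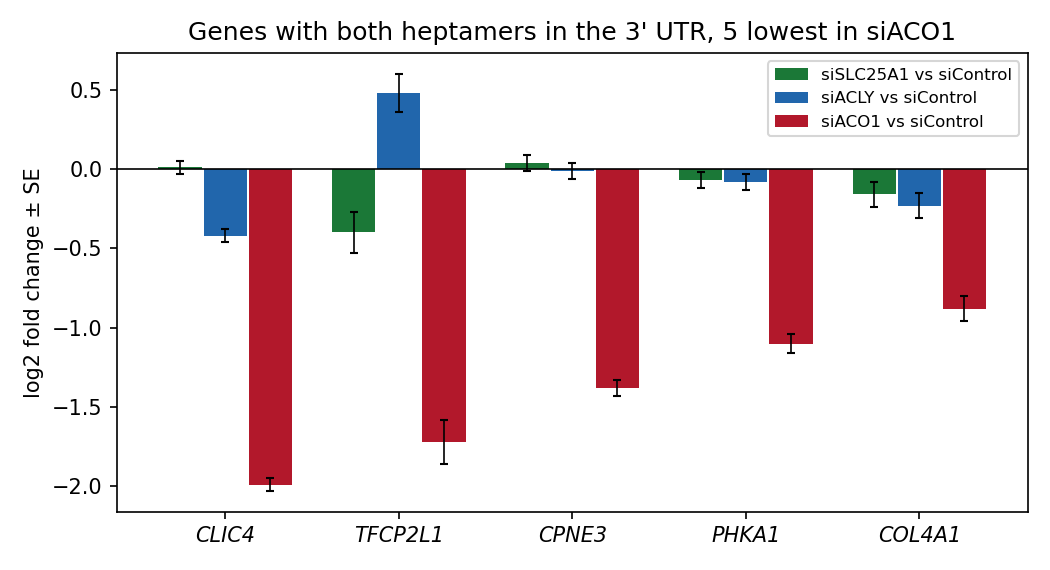
Log2 fold change against siControl (bars, with SE) of the 5 genes with both heptamers and the lowest value in siACO1, among those with at least 5 CPM in siControl, in the 3 knockdowns. In siACO1 the bars run from −1.99 for CLIC4 to −0.88 for COL4A1, and in siSLC25A1 and siACLY the bars of the same genes run from −0.42 to 0.48.

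The genes whose pattern over the 12 libraries was most like that of CLIC4 were picked by the Pearson correlation of log2 CPM among 9911 genes with at least 5 CPM in siControl. Among the closest were LARS1, the cytosolic leucyl-tRNA synthetase (r = 0.995), XPOT, the exporter of tRNA from the nucleus (r = 0.994), PFKP, the platelet-type phosphofructokinase (r = 0.991), and DERA, deoxyribose-phosphate aldolase (r = 0.990). Their Spearman coefficients ran from 0.825 to 0.937. The 12 points are 4 groups of 3 libraries and the groups stand apart, so the coefficients mostly compare 4 group means.

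These genes shared the order of levels and not the size. LARS1 was at 336 ± 3.77 CPM in siControl, 333 ± 7.12 in siSLC25A1, 316 ± 1.01 in siACLY and 241 ± 4.24 in siACO1, a log2 fold change of −0.48 in siACO1. DERA went from 71.2 ± 4.72 CPM in siControl to 37.6 ± 1.07 in siACO1, a log2 fold change of −0.92. The most opposite patterns were those of CALM3, a calmodulin gene (r = −0.992), CLSTN1, a calsyntenin (r = −0.989), and ZFP36, which encodes the mRNA-destabilising protein tristetraprolin (r = −0.989). ZFP36 went from 12.4 ± 0.385 CPM in siControl to 33.4 ± 1.04 in siACO1.

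The 5 lists of genes around the family held 90 genes, of which 83 were tested. In siSLC25A1 20 were called higher and 10 lower (36.1%), in siACLY 25 higher and 26 lower (61.4%) and in siACO1 20 higher and 24 lower (53.0%), beside 19.6%, 36.7% and 37.1% of all tested genes. Among tested genes with an annotated 3′ UTR and neither heptamer these shares were larger, 24.2%, 43.8% and 42.9%. The lists were not matched to either background for level. The directions depend in part on the scaling. With library totals in place of the scaling factors, the calls in siACLY became 26 higher and 19 lower and those in siACO1 23 higher and 16 lower. Over all called genes the share called higher went from 50.1% to 61.0% in siACLY, from 47.9% to 59.4% in siACO1 and from 51.8% to 41.0% for siSLC25A1 against siACLY.

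The list of partners at the membrane and the cytoskeleton holds proteins that CLIC4 and CLIC5 are known to work with, such as ezrin and its anchors, RhoA signalling and 14-3-3 proteins, and 22 of its 24 genes were tested. In siSLC25A1 10 were called higher and 2 lower (median log2 fold change 0.11), and 7 were called in either direction without siSLC25A1 replicate 1. PODXL, the podocyte sialomucin podocalyxin, rose there from 1866 ± 36.7 to 2421 ± 27.2 CPM, by 0.38 on the log2 scale (edgeR adjusted p = 4.78e-08). NHERF2, a scaffold that links membrane proteins to ezrin, fell by 0.31 in siSLC25A1 (edgeR adjusted p = 0.000482) and by 0.40 in siACLY (edgeR adjusted p = 7.99e-06). In siACLY 7 were called higher and 6 lower (median 0.02), with TPRN, taperin, lower by 0.32 (edgeR adjusted p = 8.38e-05).

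In siACO1 5 partners were called higher and 8 lower (median −0.01), and 7 higher and 3 lower with library totals. GNA13, the G protein alpha subunit through which CLIC4 is recruited to the plasma membrane, fell from 98.4 ± 3.16 to 58.0 ± 1.42 CPM, by 0.76 (SE 0.04; edgeR adjusted p = 3.81e-14). EZR, which encodes ezrin, fell from 733 ± 17.9 to 589 ± 10.2 CPM, by 0.32 (SE 0.04; edgeR adjusted p = 1.46e-07). Both changes were smaller than that of CLIC4. PODXL, which rose in siSLC25A1, fell in siACO1 by 0.19 (edgeR adjusted p = 0.000309), a value looked up after the data had been seen. RAB25 did not pass the filter, nor did YWHAE, a 14-3-3 gene that most cells use, which had 0 to 4 counts in a library.

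The list of TGF-beta signalling and nuclear import had 16 of 17 genes tested, with TGFBR2 at 1 count or fewer in each library. In siSLC25A1 4 were called higher and none lower (median 0.01). TGFB1, the ligand, rose there by 0.68 on the log2 scale (10.9 ± 0.514 to 17.3 ± 0.957 CPM; edgeR adjusted p = 2.69e-07). In siACO1 2 were called higher and 6 lower (median −0.03). SKIL, a repressor of SMAD proteins, fell there from 9.96 ± 0.551 to 6.75 ± 0.254 CPM, by 0.56 (SE 0.11; edgeR adjusted p = 0.000102).

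In siACLY 3 genes of this list were called higher and 6 lower (median −0.08), a count that rests on small differences. With library totals 3 were called higher and 2 lower, and leaving out siControl replicate 1 gave 3 calls in either direction. Leaving out siControl replicate 3, siACLY replicate 1 or siACLY replicate 3 gave 4 calls each. SKIL fell there by 0.38 (edgeR adjusted p = 0.00505). TGFBR1, the type I receptor, was at 0.20 (edgeR adjusted p = 0.025), and this call was lost in 4 alternatives, with adjusted p-values from 0.0512 to 0.158.

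Genes known to act on CLIC4 transcription, among them MYC and the TNF pathway, were a short list with 8 of 9 tested and TNF at 0. Whether reads of TNF could be counted was not tested, so its 0 does not show absence. In siSLC25A1 none was called higher and 2 lower (median −0.07), in siACLY 2 and 2 (median −0.08) and in siACO1 1 and 1 (median −0.03). MAX, the partner of MYC, fell in siSLC25A1 by 0.44 (edgeR adjusted p = 1.09e-06). TP63 rose in siACO1 by 0.20 (152 ± 1.97 to 175 ± 8.51 CPM; edgeR adjusted p = 0.000407). TP63 rose by 0.20 in siACLY as well (edgeR adjusted p = 0.000519) and fell by 0.17 in siSLC25A1 (edgeR adjusted p = 0.00631). TNFRSF1A, a receptor of TNF, fell in siACLY by 0.28 (edgeR adjusted p = 9.53e-07).

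Genes of glutathione transferases and relatives of their fold had 13 of 14 genes tested, with EEF1G at 0. EEF1G is uncertain because 99.9% of its exon bases overlap ENSG00000255508, so its 0 does not show absence. In siSLC25A1 1 was called higher and 4 lower (median −0.18), and 3 were called in either direction without siControl replicate 1. GSTO1, an omega-class enzyme and so a close structural relative of the CLIC proteins, rose there by 0.18 (edgeR adjusted p = 0.00658), and GSTA4 fell by 0.39 (edgeR adjusted p = 0.00121). In siACLY 4 were called higher and 3 lower (median 0.08). GDAP1, a mitochondrial protein of this fold, rose there by 1.11 (2.94 ± 0.369 to 6.32 ± 0.185 CPM; edgeR adjusted p = 1.36e-06) and GSTZ1 by 0.70 (edgeR adjusted p = 3.53e-06). In siACO1 5 were called higher and 2 lower (median 0.04). GSTM4 rose there by 0.70 (edgeR adjusted p = 1.58e-07), and GSTT2B was at 0.35 (edgeR adjusted p = 0.019; 0.28 and adjusted p = 0.103 without siControl replicate 3).

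Other chloride and anion channels, which carry chloride by unrelated protein folds, had 24 of 26 genes tested. In siSLC25A1 5 were called higher and 2 lower (median 0.03), in siACLY 9 and 9 (median 0.10) and in siACO1 7 and 7 (median −0.01). ANO1, a calcium-activated chloride channel, rose in siSLC25A1 from 41.6 ± 3.31 to 60.8 ± 2.8 CPM, by 0.55 (SE 0.06; edgeR adjusted p = 4.25e-08). In siACO1 it fell to 22.9 ± 0.633 CPM, by 0.86 (SE 0.06; edgeR adjusted p = 6.17e-12). LRRC8C, a subunit of volume-regulated anion channels, rose in siACLY by 0.68 (edgeR adjusted p = 0.000708). CLCN2 fell in all 3 knockdowns, by 0.63, 0.57 and 0.55, and is uncertain because 24.7% of its exon bases overlap FAM131A. Its changes share the control libraries.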

How the data were processed

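RNA from 12 MiaPaCa-2 libraries in 4 groups of 3 was analysed. Per the labels' protocols, DNase-treated total RNA was bound to oligo-dT beads and primed with random hexamers. The authors deposited 1 table of raw read counts per gene, with no normalization. The submitters' processing notes name CASAVA, FastQC, Trim Galore, STAR 2.7.0e and DESeq2 and the builds GRCh38 and GRCm39. The counter, the annotation release and the use of strand are not given in the sources used here. Symbols matched 62700 of 70116 identifiers, and the 7416 others, which held 0.119% to 0.148% of a library's counts, stayed in the fit.

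Counts were filtered with filterByExpr, given TMM factors (trimmed mean of M values) and fitted in edgeR 4.0.16 (R 4.3.3) with all 12 libraries and the 4 groups in 1 robust quasi-likelihood model, with two-sided F tests and Benjamini-Hochberg adjustment over 16197 genes. The fit had 8 residual degrees of freedom and a common biological coefficient of variation of 4.89%. Calls were made at an adjusted p under 0.05, and a standard error is the absolute log2 fold change over the square root of F. FPKM is the scaled CPM per kilobase of exon union. Limits for a count of 0 use 3 counts. Gene positions, 3′ UTRs and windows of transcript sequence come from GENCODE release 29 on GRCh38. Genes were called uncertain where 20% or more of their exon bases overlapped another gene.

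The members, the lists and the heptamers were chosen with earlier results of these data known. Named genes are the 6 members, the 3 targets, the 5 genes most like and 3 most unlike CLIC4, the 2 called members with the largest change in each list and knockdown, the called genes among the 10 neighbours, and the 5 lowest genes with both heptamers in siACO1. Some genes chosen by these rules are not reported here. Likeness, list members and heptamer genes were picked at a mean of at least 5 CPM. Alternatives were median-of-ratios factors, library totals, no filter, a minimum of 10 counts in every library, DESeq2 1.42.0, a fit of the 2 groups alone, a replicate block, the longest transcript for FPKM, and each library left out. The scripts were tested on simulated counts. The most deeply counted library had 43792811 counts and the shallowest 24159424, and the number of counts behind each member is given with its level.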

Additional observations from a re-analysis of the deposited data

How the results depend on the processing

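No fold change of CLIC4 that differed from 0 by more than its SE changed sign. The value of CLIC3 in siACO1, which was smaller than its SE, ran from −0.31 to 0.06 when single libraries were left out. With library totals the balance of calls in siACO1 turned from more lower to more higher, for the partners (7 higher and 3 lower), for all list genes (23 and 16) and for all called genes (59.4% higher). The log2 fold change of CLIC4 ran from −2.01 to −1.97 in siACO1, from −0.44 to −0.41 in siACLY, from −0.01 to 0.04 in siSLC25A1 and from 0.42 to 0.46 for siSLC25A1 against siACLY when each library was left out in turn. Without scaling factors the median over all tested genes was 0.051 in siACLY and 0.055 in siACO1, and CLIC4 was at −0.38 in siACLY and −1.94 in siACO1. With the longest transcript as length, CLIC4 was at 83.4, 84.3, 62.4 and 21 FPKM in siControl, siSLC25A1, siACLY and siACO1, and CLIC3 at 0.557 FPKM in siSLC25A1 and 0.311 FPKM in siACLY; a shorter length gives a higher value by construction. Left-out libraries gave 2319 to 4131 called genes in siSLC25A1, 5002 to 6734 in siACLY, 5097 to 6196 in siACO1 and 4658 to 6331 for siSLC25A1 against siACLY. Libraries with the same replicate number did not deviate together: over 18 same-number pairs the correlation of deviations ran from −0.034 to 0.067 and none passed 0.1. Low correlations do not show whether these libraries were prepared together. With a replicate block CLIC4 was at 0.43 for siSLC25A1 against siACLY (edgeR adjusted p = 1.07e-09), and 3270, 6038, 6092 and 5592 genes were called in the same 4 comparisons. Depth limits CLIC2, CLIC5 and CLIC6, the latter only if their reads could be counted, and the counts of CLIC3 are too few to separate a small change from none.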
